A study of Mus musculus with 9 samples.

Results

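The myeloid C-type lectin receptors described here are 10 genes, Clec4a1, Clec4a2, Clec4a3, Clec4d, Clec4e, Clec4n, Clec5a, Clec7a, Clec10a and Clec12a. They were taken by gene name from a deposited table of 55536 genes, and all 10 were found. The table covers 9 RNA libraries from sorted leukemia cells of mouse marrow, 3 in each of 3 groups, whose sample names begin with WT c-kit-, WT c-kit+ and IRF7-/- c-kit+. In all 3 groups a retrovirus had put MLL-AF9, a fusion oncogene, and GFP into c-kit+ cells of a C57BL/6J donor, which was wild type (labelled control-GFP overexpression) or IRF7-/- (labelled IRF7-/--GFP overexpression). The IRF7-/- allele carries a PGK-beta-geo cassette in place of part of the Irf7 gene. The recipients were C57BL/6J mice of 6 to 8 weeks that received 1000000 cells each without irradiation, so they kept their own marrow cells, and the GFP+ cells were harvested on day 18. No IRF7-/- c-kit- group was analysed here. The labels do not say whether the 3 libraries of a group came from separate mice, so the p-values measure only the spread between these libraries.

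C-type lectin receptors are surface proteins with which monocytes, macrophages, dendritic cells and neutrophils read sugars, glycolipids and debris of dying cells. Some pass an activating signal through the ITAM adaptors FcR gamma (Fcer1g) or DAP12 (Tyrobp), or through a single tyrosine motif of their own tail, to the kinase Syk and on to Card9 and NF-kappaB. Others carry an inhibitory motif (ITIM) that recruits phosphatases such as SHP-1 (Ptpn6), and a few mainly take up glycoproteins. The 10 genes are described by these roles.

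Levels are in TPM, which scale reads by gene length and library total, so they can be set side by side between genes. Read numbers cannot be taken from TPM, so depth is unknown here and errors are those of replicate spread alone. Differences are log2 fold changes of log2(TPM + 1) tested with limma, and genes entered the test when 3 or more of the 6 libraries compared reached 1 TPM. A gene was called when its log2 fold change was at least 1 in size and its Benjamini-Hochberg adjusted p over all genes tested was under 0.05. Changes of genes near or under 1 TPM are understated by the added 1. The exact permutation test of 3 libraries against 3 cannot go below p = 0.1, and it gave that value wherever the groups did not overlap. The 3 comparisons share libraries, so their values are given side by side only.

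Irf7 had means of 26.0 TPM in WT c-kit-, 4.19 TPM in WT c-kit+ and 8.91 TPM in the libraries labelled IRF7-/- c-kit+. A mean above that of WT c-kit+ goes against the label of a knockout, and the group is named by its label throughout. The c-kit+ groups did not overlap, at 3.36 to 5.31 TPM in WT c-kit+ and 5.97 to 12.81 TPM in the labelled libraries. The log2 fold change was 0.89 (SE 0.27, adjusted p = 0.0321 by limma), short of the threshold on size. In 3 of 12 alternative settings it was called. TPM of the whole gene does not show whether the part replaced by the cassette was read. The paper states that qRT-PCR and Western blot verified IRF7 expression in its models. Kit had means of 1.58, 53.5 and 80.5 TPM and followed the sort. Summed TPM of 7 neutrophil markers ran from 590.2 to 2926 in WT c-kit- and from 6633 to 11780 in WT c-kit+. It ran from 148 to 257 in the libraries labelled IRF7-/- c-kit+, where 6 of the 7 were called lower than in WT c-kit+. Most of the sum in WT c-kit+ was Camp, which had means of 694, 8553 and 154 TPM. In WT c-kit+ against WT c-kit-, 1 of the 7 was called higher and 1 lower, with a median log2 fold change of −0.05. The 2926 is that of WT c-kit- replicate 3, which stood apart from replicates 1 and 2 at 590.2 and 725.2. Clec4d, Clec4e, Clec4n, Clec5a, Clec4a1 and Clec4a2 were also highest in that library of the 3, and without it the count of receptors called fell from 6 to 5 in the libraries labelled IRF7-/- c-kit+ against WT c-kit- and stayed at 8 in WT c-kit+ against WT c-kit-. For 6 monocyte markers the ranges were 4895 to 6114, 2199 to 2584 and 2629 to 3291, and 5 of the 6 were called lower in each c-kit+ group than in WT c-kit-. For 6 dendritic cell markers they were 73.4 to 116, 9.76 to 23.1 and 10.2 to 58.5. The mean of Xcr1 was under 1 TPM in every group, and those of Zbtb46 and Siglech were in both c-kit+ groups. Of the 5 tested against WT c-kit-, 4 were called lower in each c-kit+ group. Between the c-kit+ groups 3 were tested, and 1 was called lower in the labelled libraries. The 58.5 is that of labelled replicate 2, where Flt3 was at 56.9 TPM, against 8.65 and 7.93 TPM in replicates 1 and 3. For 11 resident macrophage markers the ranges were 106 to 134, 44.8 to 71.7 and 141 to 194, highest in the libraries labelled IRF7-/- c-kit+, where most of the sum was Vcam1. Of the 7 tested in each comparison with WT c-kit+, 1 was called higher and 0 lower in the libraries labelled IRF7-/- c-kit+, and 4 were called higher and 2 lower in WT c-kit+ against WT c-kit-. The 1 was Vcam1, with means of 0.35, 9.76 and 96.5 TPM. Adgre1 had 81.9, 31.6 and 61.4 TPM, Cd163 had 32.8, 4.54 and 6.42 TPM and Axl had 2.31, 1.28 and 1.10 TPM, all highest in WT c-kit-. C1qa, C1qb and C1qc had their highest means in WT c-kit+, at 2.87, 3.77 and 2.67 TPM. Cd5l, Mertk, Spic and Siglec1 had means under 1 TPM in every group. The 5 T cell and the 3 NK cell markers had means under 1 TPM in every group too. The part of cell composition in the differences below was not tested, and in bulk RNA fewer cells of a type and less RNA per cell cannot be told apart. The median gene had a log2 fold change of 0.12 in the libraries labelled IRF7-/- c-kit+ against WT c-kit+, −0.08 in WT c-kit+ against WT c-kit-, and 0.03 in the libraries labelled IRF7-/- c-kit+ against WT c-kit-.

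**Figure D1:**
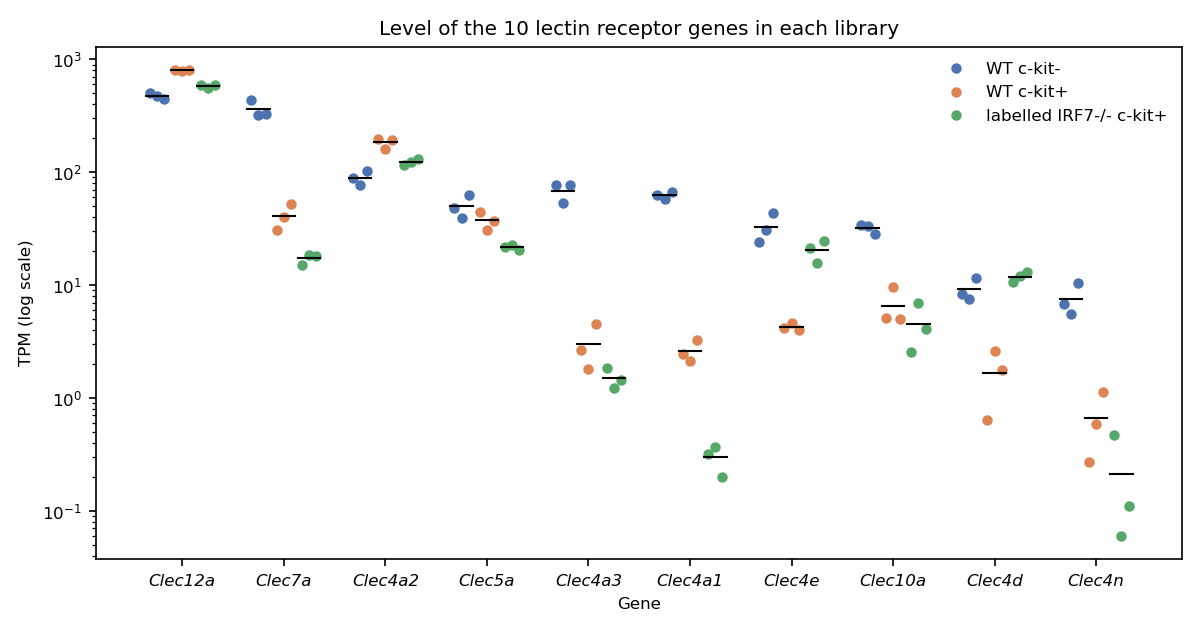
TPM on a log scale of the 10 genes, ordered by their mean over all 9 libraries, with 1 point per library and a black line at the mean of each group of 3. Clec12a is the most abundant in all 9 libraries, and Clec4d and Clec4e are lowest in the 3 WT c-kit+ libraries.

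Counted over the 10 genes, the comparison of the libraries labelled IRF7-/- c-kit+ with WT c-kit+ had 9 tested, of which 2 were called higher (Clec4d and Clec4e) and 2 lower (Clec7a and Clec4a1). Over all 13238 genes tested 6.3% were called higher and 5.39% lower. The median log2 fold change of the 9 was −0.56, against 0.12 for all genes. Groups did not overlap for 7 of the 9, against 59.1% of all genes, and 7 had an adjusted p under 0.05 by limma, against 48% of all genes. Relative to the median gene the changes were 2.22 for Clec4d, 1.89 for Clec4e, −1.29 for Clec7a and −1.58 for Clec4a1.

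In WT c-kit+ against WT c-kit-, 10 genes were tested, 1 was called higher (Clec4a2) and 7 lower, with Clec12a and Clec5a not called. Of all 13261 genes 4.83% were called higher and 9.61% lower. The median of the 10 was −2.26, against −0.08 for all genes. The groups did not overlap for 9 of them, against 54.4% of all genes, and 9 had an adjusted p under 0.05 by limma, against 41.6%.

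In the libraries labelled IRF7-/- c-kit+ against WT c-kit-, 10 genes were tested, 0 were called higher and 6 lower (Clec4n, Clec5a, Clec7a, Clec4a1, Clec4a3 and Clec10a). The background over 13510 genes was 8.4% called higher and 11.9% called lower. Clec4a2 and Clec12a were higher in every library with an adjusted p under 0.05 by limma but under the threshold on size. The median of the 10 was −1.90, against 0.03 for all genes. For 8 of them the groups did not overlap, against 67.1% of all genes, and 8 had an adjusted p under 0.05 by limma, against 59.4%.

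Ordered by group means, 7 of the 10 genes were highest in WT c-kit- (Clec4e, Clec4n, Clec5a, Clec7a, Clec4a1, Clec4a3 and Clec10a), 2 were highest in WT c-kit+ and 1, Clec4d, was highest in the libraries labelled IRF7-/- c-kit+. The highest and the next group overlapped for Clec4d, Clec4e and Clec5a, and the lowest and the next for Clec4n, Clec4a3 and Clec10a. For Clec7a, Clec4a1, Clec4a2 and Clec12a all 3 groups were separate.

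**Figure D2:**
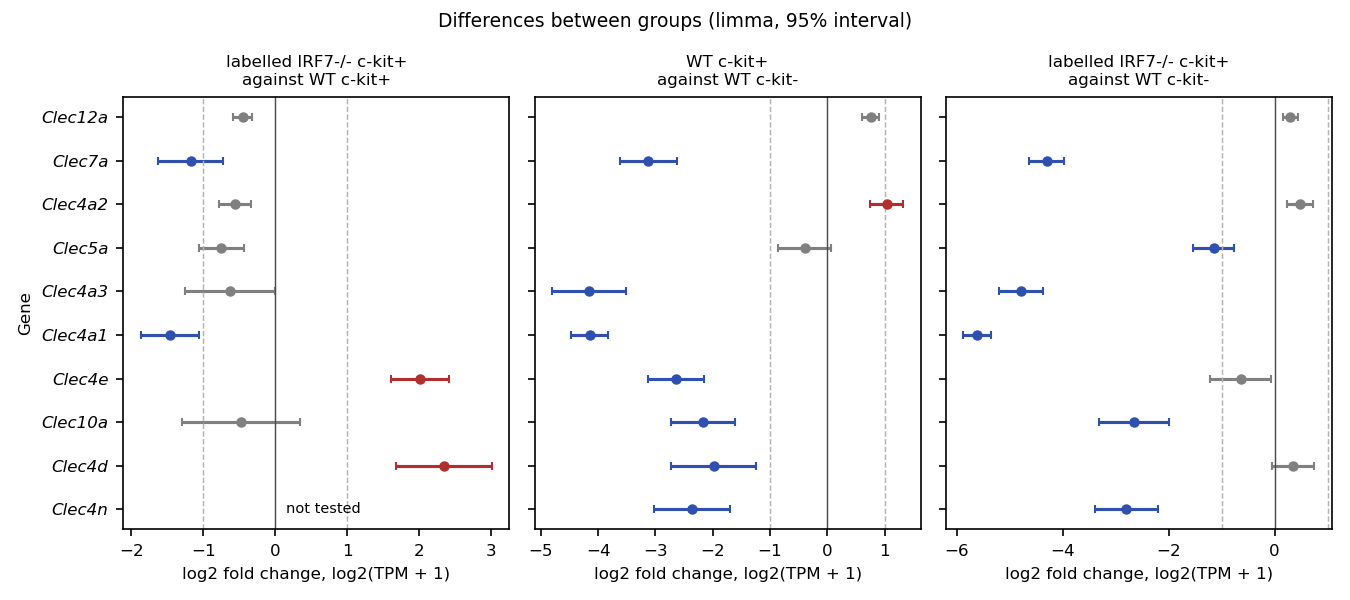
Log2 fold change of log2(TPM + 1) of each of the 10 genes in the 3 comparisons, with the 95% interval from limma, in red where called higher, in blue where called lower and in grey otherwise; dashed lines mark a change of 1 in either direction, and the horizontal scale differs between panels. Clec4d and Clec4e are the red points of the first panel at 2.34 and 2.01, and Clec4a2 is the red point of the second at 1.03.

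Clec4d and Clec4e, the activating receptors MCL and Mincle, were the only 2 of the 9 receptors tested that had a positive log2 fold change between the c-kit+ groups. Both proteins signal through FcR gamma, can pair with each other and bind mycobacterial glycolipids, and Mincle also binds a nuclear protein set free by dead cells. Clec4d was at 0.64, 2.58 and 1.78 TPM in the WT c-kit+ libraries 1, 2 and 3, against 10.6, 12.1 and 12.9 TPM in the libraries labelled IRF7-/- c-kit+. All 3 of the latter lay above all 3 of the former. Its log2 fold change was 2.34 (standard error, SE, 0.28, adjusted p = 0.000994 by limma), and the mean TPM was 7.14 times higher. With a pseudocount of 0.1 the log2 fold change was 2.95 (SE 0.45). Clec4d reached 1 TPM in 2 of the WT c-kit+ libraries and in all 3 labelled ones, so the group where it was high was enough to pass the filter. Clec4e was at 4.17, 4.58 and 4.0 TPM in WT c-kit+, compared with 21.2, 15.6 and 24.6 TPM in the libraries labelled IRF7-/- c-kit+. The groups did not overlap, and its log2 fold change was 2.01 (SE 0.17, adjusted p = 0.00026 by limma), a mean 4.81 times higher. Both were called in all 12 alternative settings of this comparison.

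In WT c-kit- the level of the same pair was near that of the libraries labelled IRF7-/- c-kit+. Clec4d was at 8.32, 7.60 and 11.7 TPM there, which overlapped with the labelled libraries, and the difference was not called (log2 fold change 0.36, 95% interval −0.04 to 0.75, adjusted p = 0.106 by limma). Clec4e was at 24.3, 30.5 and 43.4 TPM, which again overlapped (log2 fold change −0.64, 95% interval −1.21 to −0.06, adjusted p = 0.0569 by limma). A miss of the threshold does not show equal levels, and a Clec4e level lower by up to the bound of that interval remains possible. Without WT c-kit- replicate 3, the highest of its group for both genes, the Clec4d groups did not overlap and its difference was 0.52 (adjusted p = 0.0141 by limma), still under the threshold on size, and that of Clec4e was −0.42 (adjusted p = 0.14 by limma). The limma adjusted p of Clec4e ran from 0.0253 to 0.155 over the other settings. Against WT c-kit- the WT c-kit+ libraries were lower without overlap, with log2 fold changes of −1.99 (SE 0.31, adjusted p = 0.00253 by limma) for Clec4d and −2.65 (SE 0.20, adjusted p = 0.000122 by limma) for Clec4e. The ratio of Clec4e to Clec4d TPM ran from 2.92 to 4.01 in WT c-kit-, from 1.78 to 6.52 in WT c-kit+ and from 1.28 to 1.99 in the libraries labelled IRF7-/- c-kit+. The ratios in WT c-kit+ divide by the low Clec4d values there, and they span most of the range of the other groups.

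Clec4d (+ strand) and Clec4e (− strand) are neighbours at the end of a cluster of lectin genes on chromosome 6 and are separated by 6.52 kb. The 150 bases before their RefSeq start sites (GRCm38.p6) are shown because both genes were called in the same direction in the same comparisons, chr6:123261957-123262106 on the + strand for Clec4d and chr6:123289872-123290021 on the − strand for Clec4e, with any match to the motifs searched in capitals.
Clec4d: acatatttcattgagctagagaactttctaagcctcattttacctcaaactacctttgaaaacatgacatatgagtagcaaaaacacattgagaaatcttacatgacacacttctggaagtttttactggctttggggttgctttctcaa
Clec4e: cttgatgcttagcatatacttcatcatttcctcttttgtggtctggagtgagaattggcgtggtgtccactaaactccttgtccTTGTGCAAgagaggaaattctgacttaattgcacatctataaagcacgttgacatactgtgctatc
The motifs were GAGGAAGT for PU.1, TTGCNNAA for C/EBP and GAAA followed after 2 bases by GAAA for IRF proteins, on both strands, in windows of 250 bases before to 50 bases after the start. The capitals in Clec4e are a C/EBP match on the opposite strand with its first base at −66, and 10.8% of 32851 promoter windows hold such a match. Clec4d held no match in the printed stretch. Its window held 1 IRF match, TTTCCTTTTC on the opposite strand, which begins at the start site itself, and 3.44% of windows hold one. RefSeq windows were found for 8 of the 10 genes, and the PU.1 letters were in none of the 8, against 3.2% of all windows. A match is a description of letters and not a bound site.

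Clec4n, the FcR gamma coupled receptor Dectin-2 that binds fungal mannans, did not share the pattern of its neighbours Clec4d and Clec4e. It was at 6.78, 5.51 and 10.5 TPM in WT c-kit- and at 0.27, 0.59 and 1.14 TPM in WT c-kit+, compared with 0.47, 0.06 and 0.11 TPM in the libraries labelled IRF7-/- c-kit+. Every WT c-kit- library lay above every c-kit+ library, and the c-kit+ groups overlapped near the lower end of the scale. The log2 fold change from WT c-kit- was −2.36 (SE 0.28, adjusted p = 0.000745 by limma) in WT c-kit+ and −2.80 (SE 0.25, adjusted p = 0.000132 by limma) in the libraries labelled IRF7-/- c-kit+. It passed the filter in these tests through the WT c-kit- libraries, which were the only group with all 3 libraries at 1 TPM or more. With a pseudocount of 0.1 the values were −3.44 and −4.79. Between the c-kit+ groups it was below the filter and not tested.

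Clec5a, which encodes MDL-1, a DAP12 coupled receptor of monocytes and neutrophils, differed least among the activating genes between the wild-type groups. Its level was 48.4, 39.0 and 62.4 TPM in WT c-kit- and 44.5, 30.8 and 37.1 TPM in WT c-kit+, compared with 21.6, 22.7 and 20.7 TPM in the libraries labelled IRF7-/- c-kit+. The labelled libraries were the lowest 3 of all 9, while the wild-type groups overlapped. Against WT c-kit+ the log2 fold change was −0.75 (SE 0.13, adjusted p = 0.00411 by limma), short of the threshold on size. Against WT c-kit- it was −1.15 (SE 0.16, adjusted p = 0.00104 by limma) and was called, but without WT c-kit- replicate 3 it was −0.97 and was not. Between the wild-type groups it was −0.40 (SE 0.20, adjusted p = 0.153 by limma).

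Clec7a fell from one group to the next without overlap. Its product Dectin-1 binds beta-glucans of fungal walls and signals to Syk through its own single tyrosine motif. WT c-kit- had 438, 319.5 and 330.4 TPM, WT c-kit+ had 30.7, 40.2 and 52.5 TPM, and the libraries labelled IRF7-/- c-kit+ had 15.2, 18.6 and 18.3 TPM. The log2 fold change of WT c-kit+ against WT c-kit- was −3.13 (SE 0.21, adjusted p = 7.11e-05 by limma). For the libraries labelled IRF7-/- c-kit+ it was −4.30 against WT c-kit- (SE 0.14, adjusted p = 4.51e-06 by limma) and −1.17 against WT c-kit+ (SE 0.19, adjusted p = 0.00302 by limma). The last call rested on WT c-kit+ replicate 3, the highest of its group, since without it the value was −0.98. GENCODE M21 lists Clec7a as a polymorphic pseudogene with a protein-coding transcript.

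The ITIM receptors Clec12a and Clec4a2 were ordered differently from every activating gene, with the highest level in WT c-kit+ and the lowest in WT c-kit-. Clec12a encodes MICL, also called CLL-1, which binds uric acid crystals of dead cells and whose human counterpart is a surface antigen of AML blasts and leukemia stem cells. Clec4a2 encodes DCIR, an inhibitory receptor of dendritic cells and other myeloid cells.

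Clec12a was at 499, 475 and 444 TPM in WT c-kit- and at 801, 793 and 798 TPM in WT c-kit+, compared with 589.6, 558 and 598 TPM in the libraries labelled IRF7-/- c-kit+. None of the groups overlapped, and the WT c-kit+ libraries lay within a standard deviation of 3.84 TPM. The log2 fold change was 0.76 (SE 0.06, adjusted p = 0.000189 by limma) for WT c-kit+ and 0.30 (SE 0.06, adjusted p = 0.00507 by limma) for the libraries labelled IRF7-/- c-kit+, each against WT c-kit-. Between the c-kit+ groups it was −0.45 (SE 0.05, adjusted p = 0.000914 by limma). These differences exceeded the spread of the libraries but none reached the threshold on size.

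The 150 bases before the RefSeq start of Clec12a (GRCm38.p6, chr6:129350094-129350243, + strand) are shown because it was the most abundant of the 10 genes and 1 of 2 with a C/EBP match, in capitals. The match begins at −140 and reads the same on both strands. This stretch lies inside the GENCODE span of the gene (chr6:129342691-129365303), so it is upstream of the RefSeq start only.
Clec12a: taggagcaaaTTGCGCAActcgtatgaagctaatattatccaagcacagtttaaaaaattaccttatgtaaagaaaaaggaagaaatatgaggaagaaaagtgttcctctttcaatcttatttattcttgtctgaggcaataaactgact

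Clec4a2 was at 88.8, 77.9 and 102 TPM in WT c-kit- and at 198, 161 and 193 TPM in WT c-kit+, compared with 117, 124 and 132 TPM in the libraries labelled IRF7-/- c-kit+. The groups again did not overlap. In WT c-kit+ against WT c-kit- the log2 fold change was 1.03 (SE 0.12, adjusted p = 0.000721 by limma), the only rise among the 10 genes that was called in this comparison. It fell below the threshold on size without WT c-kit- replicate 2 (0.94), without WT c-kit+ replicate 1 (0.98) and without WT c-kit+ replicate 3 (0.9969). In the libraries labelled IRF7-/- c-kit+ it was 0.48 against WT c-kit- (SE 0.10, adjusted p = 0.00669 by limma) and −0.56 against WT c-kit+ (SE 0.09, adjusted p = 0.00324 by limma), neither of them called. Of the 50-base words of its transcripts 6.15% also occur in Clec4a4 or Clec4b1, so a part of its reads could be shared with them. Clec4b1 had means of 14.7 TPM in WT c-kit- and 0.98 TPM in WT c-kit+, opposite in direction to Clec4a2, and Clec4a4 was below 1 TPM in every library. What such sharing would do to the difference of 1.03 was not tested.

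Clec4a1 and Clec4a3 encode relatives of DCIR that lack the ITIM, and they had the largest log2 fold changes of the 10 against WT c-kit-. Clec4a1 was at 63.1, 58.0 and 66.2 TPM in WT c-kit- and at 2.43, 2.11 and 3.27 TPM in WT c-kit+, compared with 0.32, 0.37 and 0.20 TPM in the libraries labelled IRF7-/- c-kit+. The groups were far apart on the log scale and did not overlap. Its log2 fold change was −4.15 (SE 0.14, adjusted p = 9.54e-06 by limma) in WT c-kit+ and −5.61 (SE 0.11, adjusted p = 1.03e-06 by limma) in the libraries labelled IRF7-/- c-kit+ against WT c-kit-, which placed it 25 and 24 in the order of absolute change among 13261 and 13510 genes. Between the c-kit+ groups it was −1.46 (SE 0.17, adjusted p = 0.000898 by limma). Since the labelled libraries were all under 1 TPM, the gene passed the filter through the other group in both of their comparisons, and with a pseudocount of 0.1 the values were −7.32 and −2.77.

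Clec4a3 was at 76.5, 53.2 and 76.3 TPM in WT c-kit- and at 2.66, 1.80 and 4.56 TPM in WT c-kit+, compared with 1.86, 1.23 and 1.44 TPM in the libraries labelled IRF7-/- c-kit+. The c-kit+ groups overlapped in this case, and both lay far below WT c-kit-. Set against the latter, it had log2 fold changes of −4.16 (SE 0.27, adjusted p = 6.55e-05 by limma) in WT c-kit+ and −4.78 (SE 0.17, adjusted p = 6.47e-06 by limma) in the libraries labelled IRF7-/- c-kit+. Between the c-kit+ groups it was −0.62 (SE 0.26, adjusted p = 0.0912 by limma) and was not called.

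The genes lie next to each other at the other end of the chromosome 6 cluster, both on the + strand and 17.9 kb apart. The 150 bases before their RefSeq starts (GRCm38.p6, + strand, chr6:122921698-122921847 for Clec4a1 and chr6:122952365-122952514 for the first of the Clec4a3 starts) are shown beside those of Clec4d and Clec4e, since the pairs share the cluster but not the pattern. Neither held a match to the motifs searched, so no letter is in capitals.
Clec4a1: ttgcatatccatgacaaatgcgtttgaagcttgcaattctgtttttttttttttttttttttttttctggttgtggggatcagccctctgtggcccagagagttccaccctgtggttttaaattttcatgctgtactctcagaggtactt
Clec4a3: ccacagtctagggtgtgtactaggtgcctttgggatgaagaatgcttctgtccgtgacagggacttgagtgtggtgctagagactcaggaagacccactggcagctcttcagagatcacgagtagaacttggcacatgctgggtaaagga

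Clec10a encodes MGL1, an endocytic receptor for terminal galactose and related sugars on macrophages and dendritic cells. Its level was 34.3, 33.3 and 28.2 TPM in WT c-kit- and 5.11, 9.60 and 4.98 TPM in WT c-kit+, compared with 2.57, 6.95 and 4.05 TPM in the libraries labelled IRF7-/- c-kit+. The c-kit+ groups overlapped with each other and not with WT c-kit-. Log2 fold changes against WT c-kit- were −2.17 (SE 0.23, adjusted p = 0.00049 by limma) in WT c-kit+ and −2.65 (SE 0.28, adjusted p = 0.000282 by limma) in the libraries labelled IRF7-/- c-kit+. The difference between the c-kit+ groups was −0.48 (SE 0.34, adjusted p = 0.29 by limma).

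Its neighbour Mgl2, the paralog MGL2 that lies 18.6 kb away on chromosome 11, ran the other way. Mgl2 was at 3.12, 3.06 and 3.38 TPM in WT c-kit- and at 17.3, 28.8 and 19.0 TPM in WT c-kit+, compared with 258, 190.5 and 248 TPM in the libraries labelled IRF7-/- c-kit+. The groups did not overlap, and the ratio of Mgl2 to Clec10a TPM went from 0.0911 to 0.12 in WT c-kit- through 3.00 to 3.82 in WT c-kit+ to 27.4 to 100.5 in the libraries labelled IRF7-/- c-kit+. Of the 50-base words of Clec10a 8.49% also occur in Mgl2, so reads from these stretches cannot be assigned to one gene from the sequence alone. How the authors assigned such reads is not given in the sources used here, and the Clec10a levels in the libraries labelled IRF7-/- c-kit+ are uncertain to that extent.

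**Figure D3:**
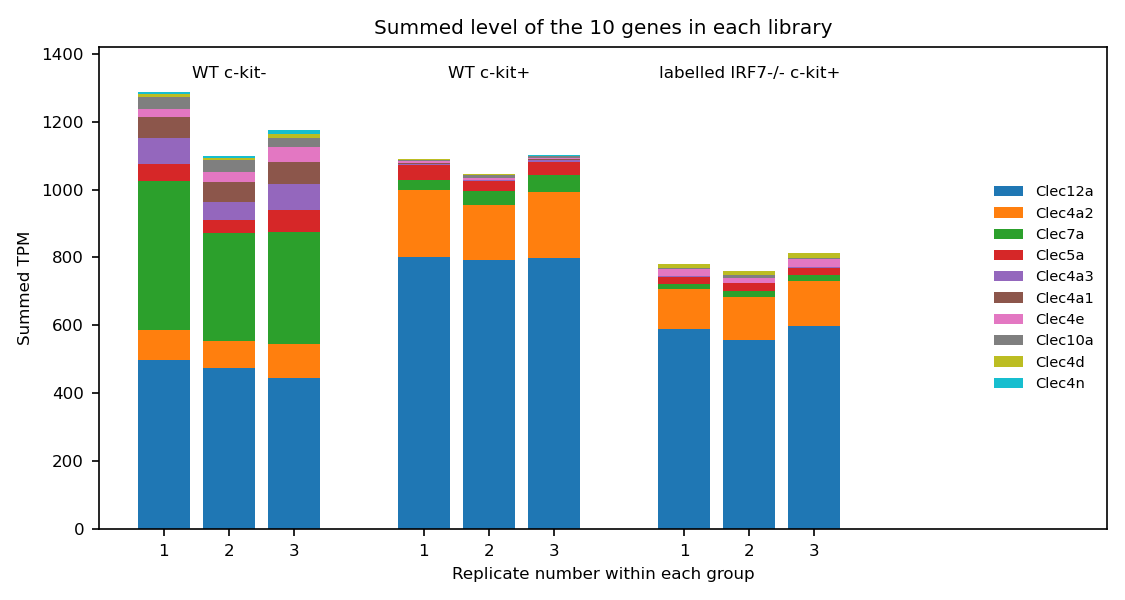
Summed TPM of the 10 genes in each of the 9 libraries, stacked by gene from 0 on a linear axis, with the replicate number under each bar. Clec12a and Clec4a2 make up 45.6% to 50.3% of the bar in WT c-kit-, 90.1% to 91.7% in WT c-kit+ and 89.8% to 90.6% in the labelled libraries.

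The makeup of the summed RNA of the 10 genes differed between the groups. The shares depend on the genes listed. Outside the sum are the lectin genes Mgl2, with a mean of 232 TPM in the labelled libraries, and Clec4b2, with a mean of 125 TPM in WT c-kit+. Summed over the 10 genes, the level was 1099 to 1288 TPM in WT c-kit-, 1047 to 1101 TPM in WT c-kit+ and 759.9 to 812 TPM in the libraries labelled IRF7-/- c-kit+. The wild-type ranges overlapped, and the labelled libraries were lower. Clec12a alone held 37.8% to 43.2% of the sum in WT c-kit-, 72.5% to 75.8% in WT c-kit+ and 73.4% to 75.6% in the libraries labelled IRF7-/- c-kit+. The share of Clec7a went from 28.1% to 34.0% in WT c-kit- down to 2.82% to 4.77% and 1.95% to 2.45% in the c-kit+ groups. The 8 genes other than Clec12a and Clec4a2 summed to 546.7 to 699.9 TPM in WT c-kit-, 90.5 to 109 TPM in WT c-kit+ and 73.7 to 82.3 TPM in the libraries labelled IRF7-/- c-kit+. The rise of Clec4d and Clec4e thus stood within a sum of the 8 that was lower in each labelled library than in each WT c-kit+ library.

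**Figure D4:**
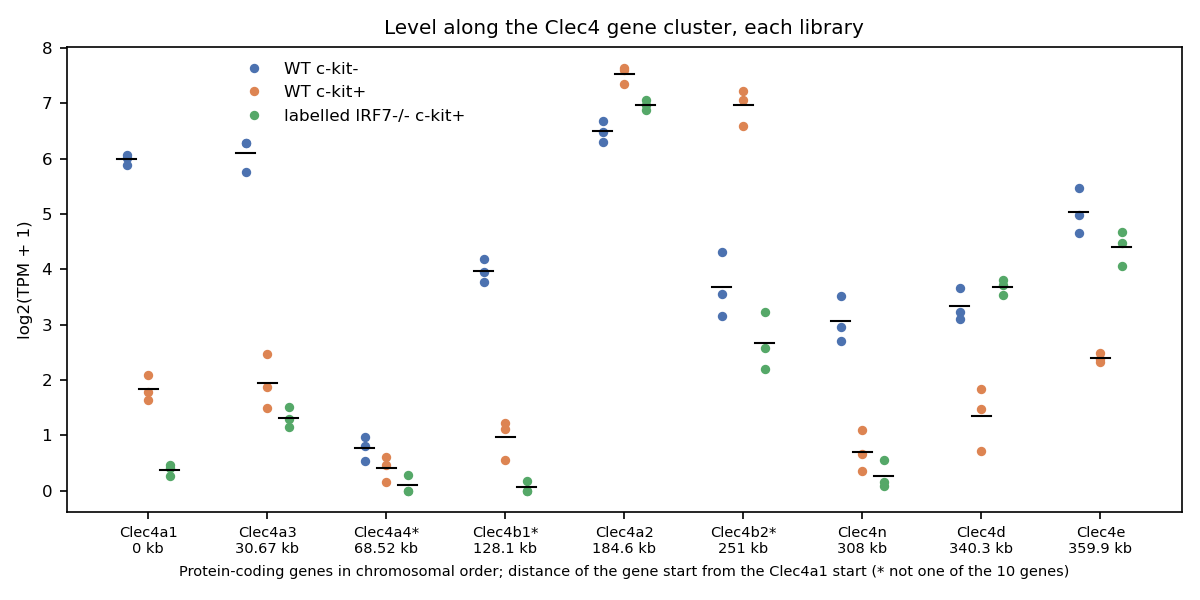
Log2(TPM + 1) of the 9 protein-coding genes of the chromosome 6 cluster in chromosomal order, 1 point per library and a black line at the group mean, with the distance of each gene's lower coordinate from that of Clec4a1 in kb under its name and a star for genes outside the 10. Clec4a2 is high in all groups, Clec4b2 is highest in WT c-kit+, and Clec4d and Clec4e are lowest there.

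Neighbouring receptor genes did not all share a pattern. Of the 10 genes 9 are on chromosome 6, and 6 of these lie with 3 other protein-coding lectin genes in a cluster of 368 kb (GRCm38, chr6:122921848-123289870). From its lower end the order is Clec4a1, Clec4a3, Clec4a4, Clec4b1, Clec4a2, Clec4b2, Clec4n, Clec4d and Clec4e. Clec4b2, which encodes the DCAR family receptor between Clec4a2 and Clec4n, was at 7.95, 10.7 and 18.8 TPM in WT c-kit- and at 148, 95.8 and 133 TPM in WT c-kit+, compared with 3.59, 8.37 and 4.96 TPM in the libraries labelled IRF7-/- c-kit+. It was high in WT c-kit+ alone, with a log2 fold change between the c-kit+ groups of −4.29 (SE 0.28, adjusted p = 0.000105 by limma), opposite in sign to that of Clec4d and Clec4e in the same comparison. Clec4b1 was at 17.1, 12.7 and 14.4 TPM in WT c-kit-, at 1.17, 0.46 and 1.32 TPM in WT c-kit+ and listed at 0, 0.13 and 0 TPM in the libraries labelled IRF7-/- c-kit+, and Clec4a4 stayed under 1 TPM in all libraries. Outside the cluster, Clec12a (chr6:129342691-129365303, + strand) and Clec7a (chr6:129461591-129472779, − strand) are near each other on the same chromosome and had opposite directions between the wild-type groups, with −3.13 for Clec7a and 0.76 for Clec12a. Clec5a is at chr6:40574894-40585821 (− strand) and Clec10a at chr11:70156197-70170834 (+ strand).

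Of 34 other C-type lectin genes, 17 were tested in the libraries labelled IRF7-/- c-kit+ against WT c-kit+. In that comparison 3 were called higher (Mgl2, with a log2 fold change of 3.38, Cd302 with 2.90 and Clec11a with 1.95) and 2 lower (Clec4b2, and Cd209a with −1.58), and the median of the 17 was 0.04. Cd209a was at 1.42, 1.56 and 4.61 TPM in WT c-kit+ and at 0, 0.19 and 0.1 TPM in the labelled libraries. It passed the filter through WT c-kit+ alone, and the added 1 understates its change. Of all genes 6.3% were called higher and 5.39% lower, with a median of 0.12. Cd302, an endocytic lectin, was at 1.16, 1.73 and 1.83 TPM in WT c-kit+, against 18.7, 17.6 and 17.9 TPM in the libraries labelled IRF7-/- c-kit+, and at 17.9, 12.4 and 10.8 TPM in WT c-kit-. Like Clec4d, it was low in WT c-kit+ only. In WT c-kit+ against WT c-kit-, 22 were tested, 4 called higher and 10 lower, with a median of −0.71. For all genes these were 4.83%, 9.61% and −0.08. In the libraries labelled IRF7-/- c-kit+ against WT c-kit-, 21 were tested, 4 called higher and 9 lower, with a median of −0.87. For all genes these were 8.4%, 11.9% and 0.03. Olr1, the scavenger receptor LOX-1 for oxidized LDL, was among those called higher in both comparisons with WT c-kit-, at 2.38 to 4.18 TPM in WT c-kit-, 32.8 to 40.2 TPM in WT c-kit+ and 47.0 to 55.8 TPM in the libraries labelled IRF7-/- c-kit+.

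**Figure D5:**
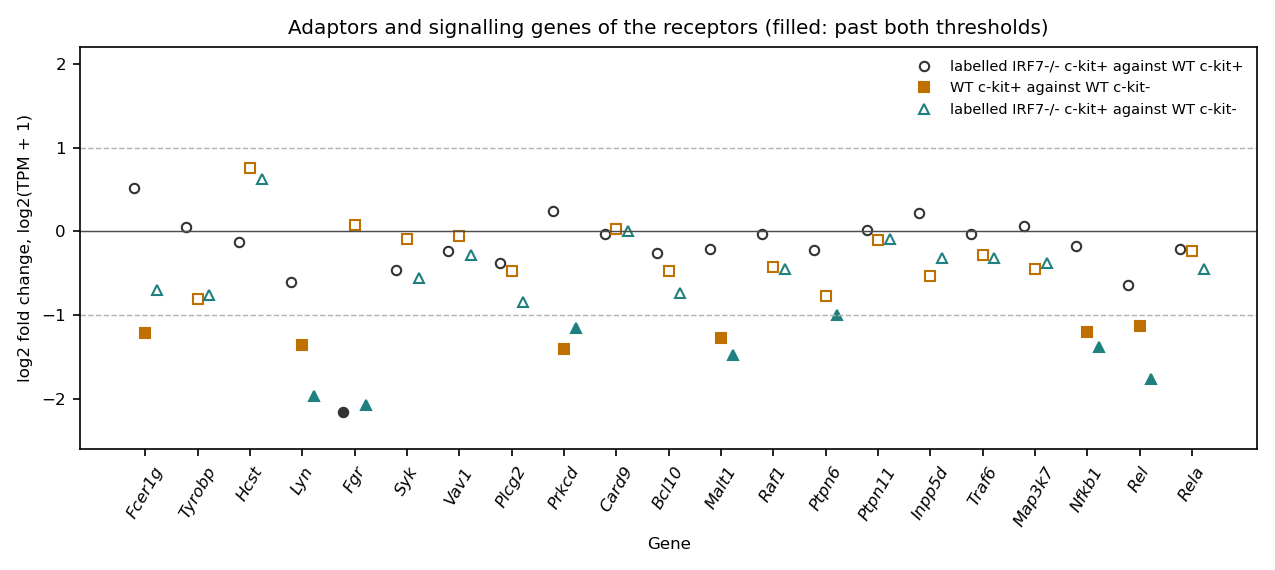
Log2 fold change of log2(TPM + 1) of 21 adaptor and signalling genes of the receptors in the 3 comparisons, with filled symbols for genes past both thresholds and dashed lines at a change of 1 in either direction. Fgr is the only filled circle, at −2.15, and no gene is filled above 0.

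Of the adaptors, kinases and other signalling genes that serve these receptors, all 21 listed were tested. Between the c-kit+ groups 0 were called higher and 1 lower, against 6.3% and 5.39% of all genes. The median was −0.17, against 0.12 for all genes. The gene called was Fgr, a Src family kinase, at 56.3, 31.9 and 48.9 TPM in WT c-kit+, compared with 8.29, 10.1 and 9.44 TPM in the libraries labelled IRF7-/- c-kit+ (log2 fold change −2.15, SE 0.20, adjusted p = 0.000423 by limma). In WT c-kit- it was at 40.3, 30.9 and 60.1 TPM, which overlapped with WT c-kit+. Fcer1g, the adaptor of Clec4d and Clec4e, was at 387, 365 and 443 TPM in WT c-kit+, compared with 569, 549 and 586 TPM in the libraries labelled IRF7-/- c-kit+. The latter were all higher, with a log2 fold change of 0.52 (adjusted p = 0.00267 by limma) that stayed below the threshold on size. Tyrobp, the adaptor of Clec5a, differed by 0.05 (adjusted p = 0.559 by limma), with means of 1282 and 1329 TPM. Syk had means of 119 TPM in WT c-kit-, 112 TPM in WT c-kit+ and 80.4 TPM in the libraries labelled IRF7-/- c-kit+, and Card9 had means of 257, 261 and 257 TPM.

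In WT c-kit+ against WT c-kit-, 0 of the 21 were called higher and 6 lower, against 4.83% and 9.61% of all genes. The median was −0.47, against −0.08 for all genes. The 6 were Prkcd (−1.40), Lyn (−1.36), Malt1 (−1.27), Fcer1g (−1.22), Nfkb1 (−1.20) and Rel (−1.13), which are kinases, the adaptor, a partner of Card9 and NF-kappaB subunits. Fcer1g fell from 947, 864 and 965 TPM in WT c-kit-. In the libraries labelled IRF7-/- c-kit+ against WT c-kit-, 0 were called higher and 7 lower, against 8.4% and 11.9% of all genes. The median was −0.70, against 0.03 for all genes. The largest of the 7 changes were Fgr (−2.08), Lyn (−1.97), Rel (−1.77), Malt1 (−1.47), Nfkb1 (−1.37) and Prkcd (−1.15). Ptpn6, which encodes the phosphatase SHP-1 of ITIM receptors, had means of 465 TPM in WT c-kit-, 272 TPM in WT c-kit+ and 232 TPM in the libraries labelled IRF7-/- c-kit+.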

How the data were processed

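RNA of 9 sorted leukemia samples was measured, 3 in each of 3 groups assigned from the sample titles. The authors deposited 1 table of TPM per gene and library. The paper calls the assay a microarray, while the labels name an RNA library kit. Aligner, build and read assignment are not given in the sources used here. Coordinates are those of GENCODE M21 (GRCm38), which holds all 55536 identifiers. TPM sum to 987468 to 992231 per library, a scaled total that does not give read numbers. Without read numbers, precision is known only from the 3 libraries of a group.

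Differences were fitted, separately for every pair of groups and its 6 libraries, with limma 3.58.1 in R 4.3.3 (lmFit, eBayes with trend) on log2(TPM + 1), for genes that reached 1 TPM in 3 or more of the 6. Exact permutation tests were two-sided. The functions were tested on simulated data. The genes and lists were chosen with earlier results of these data known. All 10 genes are named. Up to 6 with the largest change past both thresholds are named for the signalling list, and for the other lectins between the c-kit+ groups. For the other lectins against WT c-kit- this rule was not followed. Olr1 was named there although more were called lower than higher. Adaptors, kinases and cluster or paralog neighbours of the 10 were added after their values were seen. Promoter sequences are those of RefSeq on GRCm38.p6. Words of 50 bases shared between genes were counted over GENCODE transcripts. 1 gene of the planned signalling list is not reported here. Protein motifs were not searched, since no protein sequences were used here. Equal replicate numbers are not stated to share a mouse or day.

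Alternatives were no filter or one of 5 TPM, quantile normalization, a pseudocount of 0.1, all 9 libraries in 1 fit, the replicate block, each library left out, and for counts the adjusted p alone. Python 3.11.15, pandas 2.3.3 and matplotlib 3.10.9 were used for tables and plots.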

Additional observations from a re-analysis of the deposited data

How the results depend on the processing

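Over 346 refits of single receptors under the alternatives, 341 kept their direction and whether they were called, 5 kept the direction and lost the threshold on size (Clec7a, Clec5a and 3 for Clec4a2, each by leaving out 1 library, as given with those genes), and 0 reversed. In 5 refits of differences that stayed under the threshold on size, the limma adjusted p moved to under 0.05, for Clec4e in the labelled libraries against WT c-kit- with all 9 libraries in 1 fit (0.03), with the replicate block (0.0253) and without WT c-kit- replicate 1 (0.0275), for Clec4d there without WT c-kit- replicate 3 (0.0141), and for Clec4a3 between the c-kit+ groups without WT c-kit+ replicate 2 (0.0294). With the filter of 5 TPM, 1015 genes in all were called between the c-kit+ groups in place of 1548, on fewer genes tested. With the adjusted p alone, 7 of the 9 receptors tested were called there in place of 4, against 48% of all genes. Leaving out each library gave 3 to 4 receptors called between the c-kit+ groups, 7 to 8 in WT c-kit+ against WT c-kit- and 5 to 6 in the libraries labelled IRF7-/- c-kit+ against WT c-kit-. For Irf7 between the c-kit+ groups the log2 fold change of 0.89 ran from 0.62 to 1.12 over the settings (limma adjusted p from 0.0141 to 0.0949).

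Deviations of same-numbered libraries had Pearson's r from −0.07 to 0.24 over 13962 genes, and those of differently numbered ones from −0.18 to 0.14. For the labelled libraries against WT c-kit- the same-number values were 0.05, 0.08 and 0.05, and those of different numbers ran from −0.05 to −0.01. These low correlations do not settle whether equal numbers were paired. With the replicate block 4, 8 and 6 receptors were called, as without it, and 1549, 1950 and 2749 genes in all. Clec4n between the c-kit+ groups had a value only with no filter on low values (log2 fold change −0.44, adjusted p = 0.233 by limma), and Clec4a1 and Clec4a3 had none there with the filter of 5 TPM. Depth is unknown from TPM, so levels under about 1 TPM cannot be given a counting error.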
